A study of Mus musculus with 24 samples.

Results

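The 10 noncoding RNAs described here were chosen by name, as RNAs known to act in the nucleus or to be made there: Malat1, Neat1, Rn7sk, Rmrp, Rpph1, Terc, Tug1, Pvt1, Gas5 and Snhg1. All 10 were found by symbol among the 47937 gene IDs of both count tables, and all 10 passed the filter on low counts in both. They were followed in 4 lines of mouse embryonic stem (ES) cells of mixed 129/Sv and C57Bl6 background, grown without feeder cells on gelatin in medium with serum replacement and LIF. WT26 was the control line of the Mettl14 KO line, which came from it as 1 homozygous clone with a small frameshift deletion in Mettl14. Guides to Mettl3 had been delivered together with those to Mettl14 when that clone was made, but the study reports that its Mettl3 kept an intact MT-A70 domain. The Mettl3 KO line was also 1 clone, obtained from another laboratory, and its parent RBC was its control. RBC carries BirA-V5 at Rosa26 and Cre-ERT2, so RBC and the Mettl3 KO share these transgenes and WT26 and the Mettl14 KO do not. RNA-seq gave 8 libraries, 2 per line, and MeRIP-seq gave 16, an input and an m6A immunoprecipitate (IP) of nuclear RNA from 2 replicates of each line.

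Mettl3 and Mettl14 form the enzyme that writes N6-methyladenosine (m6A) on RNAs made by RNA polymerase II, often within a GGAC sequence, and MeRIP-seq enriches RNA fragments that hold the mark with an antibody. The 10 RNAs fall into 4 kinds. Rn7sk (7SK, which holds the elongation factor P-TEFb inactive), Rmrp (RNA of RNase MRP, which acts in ribosomal RNA processing) and Rpph1 (RNA of RNase P, which trims the 5′ ends of tRNAs) are short products of RNA polymerase III. Terc, the template RNA of telomerase, is a short product of RNA polymerase II. Malat1 (nuclear speckles), Neat1 (the scaffold of paraspeckles), Tug1 and Pvt1 (transcribed next to Myc) are long nuclear RNAs. Gas5 and Snhg1 carry small nucleolar RNAs (snoRNAs) in their introns, and their spliced RNAs are degraded through nonsense-mediated decay.

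The RNA-seq libraries held 11321459 to 13743181 counted reads and the MeRIP-seq libraries 9394163 to 28441282. The labels call the RNA-seq material total RNA, whereas the methods of the study say nuclear RNA, and ribosomal RNA was depleted. Mettl14 read 401 and 358 normalized counts (reads scaled to a common library size) in WT26 and 296 and 316 in the Mettl14 KO, and Mettl3 read 928 and 979 in RBC and 880 and 821 in the Mettl3 KO. Transcript level is no check of a small frameshift deletion. All 8 ES cell markers of a fixed list were above 10 normalized counts in all 8 RNA-seq libraries, and their sum ran from 27226 to 27656 in WT26, 19443 to 19804 in the Mettl14 KO, 24630 to 24756 in RBC and 17492 to 17585 in the Mettl3 KO. Primitive endoderm markers summed to 55.8 to 56.1 in WT26, 167 to 173 in the Mettl14 KO, 126 to 133 in RBC and 102 to 125 in the Mettl3 KO, and 6 fibroblast markers summed to 27.3 to 110.4 over all libraries, with 1 to 3 of them at 10 or more and Dcn at 0 in each. In RNA-seq the RBC replicates stood further apart than those of the other lines: 11 mitochondrial RNAs took 4.21% of reads in RBC replicate 1 and 2.74% in replicate 2. Among the IPs replicate 1 held more of them than replicate 2 in every line. They took 12.1% and 0.948% in RBC, 4.16% and 1.01% in WT26, 6.69% and 1.41% in the Mettl14 KO and 6.43% and 1.49% in the Mettl3 KO.

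The genes and short stretches of their RNA are given here because the MeRIP-seq results divide them by length, and because they show whether an RNA holds the sequence that the writer prefers. In the GRCm38 build the short genes were Rn7sk on chromosome 9 (78175303 to 78175633, minus strand, 331 bases), Rmrp on chromosome 4 (43492788 to 43493058, minus strand, 271 bases), Rpph1 on chromosome 14 (50807449 to 50807767, minus strand, 319 bases) and Terc on chromosome 3 (96414437 to 96414859, minus strand, 423 bases). The long RNAs were Malat1 (chromosome 19, 5795690 to 5802672, minus strand, 6983 exon bases) and its neighbour Neat1 (5824708 to 5845478, minus strand, 20771 exon bases), Tug1 (chromosome 11, 3639785 to 3649673, minus strand, 9734 exon bases) and Pvt1 (chromosome 15, 62037986 to 62378096, plus strand, 6996 exon bases in 21 exon blocks). The snoRNA host genes were Gas5 (chromosome 1, 161034422 to 161038539, plus strand, 3760 exon bases, holding 10 annotated snoRNAs) and Snhg1 (chromosome 19, 8723475 to 8726443, plus strand, 2969 exon bases, holding 8). The exons counted for Gas5 and Snhg1 overlap those snoRNA records on the same strand, and those of Malat1 and Pvt1 overlap Gm37376 and H2afy3 on the other strand. Rmrp and Tug1 overlap Ccdc107 and Morc2a on the other strand and Rpph1 overlaps Ccnb1ip1 on its own strand. Exons of Malat1, Neat1, Tug1 and Pvt1 also overlap records of miscellaneous RNAs on their own strand, such as Gm27694 in Malat1 and Gm27533 in Neat1. Whether the counting used strand was not given in the sources used here, so reads of these RNAs cannot be told apart with certainty from reads of their partners.

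GGAC, searched on the RNA strand, occurred 16 times in Malat1 (2.29 per kb), 83 times in Neat1 (4.0 per kb), 28 times in Tug1 (2.88 per kb), 30 times in Pvt1 (4.29 per kb), 17 times in Gas5 (4.52 per kb) and 6 times in Snhg1 (2.02 per kb), against 3.73 per kb over the 16922 genes tested with a sequence. Rn7sk, Rmrp and Terc held 2 copies each and Rpph1 none, where 61.9%, 55.5%, 69.5% and 60.7% of windows of the same length in other genes held at least 1. A match is a run of letters and not a measured site. In the windows of 30 bases printed here GGAC is in capitals. For Tug1, Malat1 and Neat1 each is the first window with the most copies, and for Rn7sk and Rmrp both copies are shown. The last line is the telomere template of Terc with CTAACC, which occurs 1 time in Terc, in capitals.
Tug1 (chr11:3647431-3647460, minus strand): aaaaaactttgttGGACtctggctgGGACa
Malat1 (chr19:5797007-5797036, minus strand): gaaattcaccagtGGACaaaatgaGGACaa
Neat1 (chr19:5843686-5843715, minus strand): aatttgggctttgGGACgtcttctGGACta
Rn7sk (chr9:78175471-78175500, minus strand): gctcggtcgaagaGGACgaccttccccgaa
Rn7sk (chr9:78175447-78175476, minus strand): cccgaatagaggaGGACcggtcttcggtca
Rmrp (chr4:43493004-43493033, minus strand): ggctacatacgagGGACatgttccttatcc
Rmrp (chr4:43492965-43492994, minus strand): ggggaaagtccccGGACcacgggcagagag
Terc (chr3:96414814-96414843, minus strand): aggcctcggcacCTAACCctgattttcatt

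The 10 RNAs spanned several orders of magnitude in level, and the name abundant did not suit all of them. Per length (reads per 1e6 reads per kb of exon), WT26 RNA-seq gave Rmrp 72400 and 83500, Rn7sk 15400 and 16100, Rpph1 11200 and 12100 and Malat1 1110 and 1170 in its 2 replicates. Terc followed with 455 and 592, Gas5 with 108 and 113, Snhg1 with 74.5 and 78.2, Tug1 with 32.9 and 33.3, Neat1 with 18.6 and 19.6 and Pvt1 with 10.4 and 11.3. No neighbours in this order overlapped in WT26, and the order was the same in the Mettl14 KO. In RBC, Rn7sk (12900 to 16000) and Rpph1 overlapped, and in the Mettl3 KO Neat1 (28.4 and 31.7) stood above Tug1 (mean 21.4). By reads alone, Rmrp ranked 3rd or 4th among all genes in each of the 8 libraries, Malat1 between 4th and 7th, Rn7sk between 5th and 10th and Rpph1 between 8th and 11th. Pvt1 ranked between 1785th and 4407th and Terc between 487th and 1949th.

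**Figure D1:**
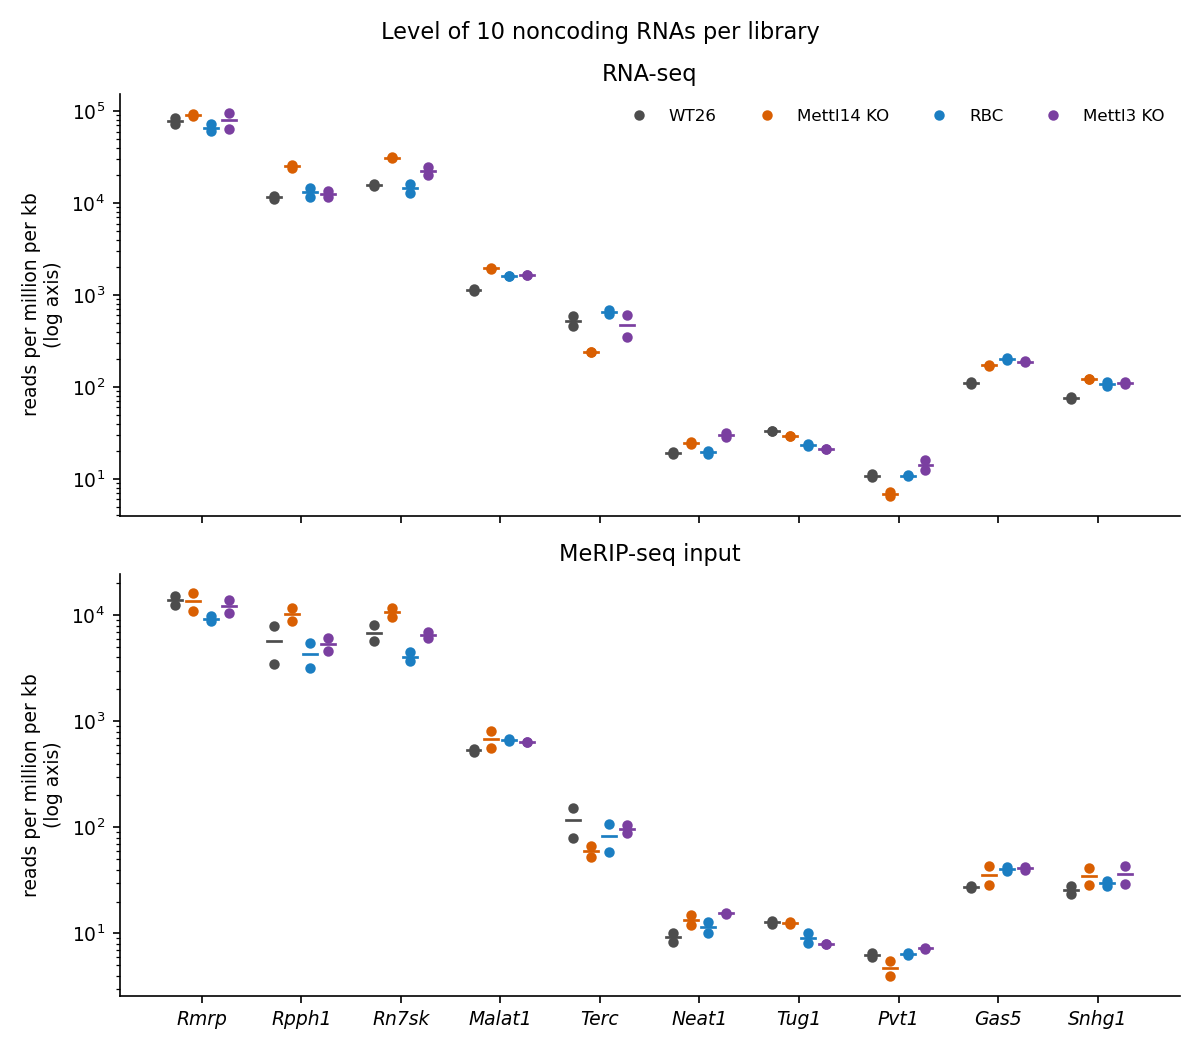
Level of each noncoding RNA in reads per 1e6 reads per kb of exon (log axis) in every RNA-seq library and every MeRIP-seq input library of the 4 lines; points are libraries and bars are means of 2. Rmrp, Rn7sk, Rpph1 and Malat1 lie highest in both assays and Pvt1 lowest in RNA-seq.

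In the input libraries of nuclear RNA, where reads were also counted over repeats, all 10 RNAs had lower levels per length in WT26 than in RNA-seq. There the mean input level per length was 13800 for Rmrp, 6860 for Rn7sk, 5720 for Rpph1, 532 for Malat1 and 117 for Terc, and the ranges of Rn7sk (5690 to 8030) and Rpph1 overlapped, as did those of Gas5 (27.1 to 27.9) and Snhg1. Rn7sk, Rmrp and Rpph1 together took 2.43% to 4.36% of the reads of an RNA-seq library, 0.488% to 1.06% of an input library and 0.0141% to 0.0619% of an IP library. Malat1 alone took 0.775% to 1.39%, 0.36% to 0.564% and 0.519% to 0.899% of them. Repeats took 32.7% to 43.3% of input reads, so shares are not on the same footing as in RNA-seq. The drop from RNA-seq to input was uneven. In WT26 the mean level per length went from 78000 to 13800 for Rmrp, from 524 to 117 for Terc and from 1140 to 532 for Malat1. The causes of the drop were not tested.

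Loss of Mettl14 was set against WT26 first. With an adjusted p no higher than 0.05 as the test for rose and fell, 6 of the 10 RNAs rose and 3 fell, where 25.5% of the 17021 genes tested rose and 27.0% fell. The median log2 fold change was 0.52 over the 10 and 0.00 over all genes. Rn7sk and Rpph1 rose and Terc fell more than 2-fold, which makes 3 of 10 past the adjusted p and a log2 fold change of 1 in size, against 14.5% of all genes. With scaling by library size 2 of 10 were past both limits, against 14.4% of all genes. Fewer cells of one kind and less RNA per cell cannot be told apart in such libraries, and the higher primitive endoderm sum and the lower ES cell marker sum of the Mettl14 KO given above move with all these changes. Their part was not tested.

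Of the short RNAs, Rn7sk read 65147 and 62012 normalized counts in WT26 and 128579.8 and 127935 in the Mettl14 KO. The Mettl14 KO libraries lay together, well above both WT26 libraries, and the log2 fold change was 1.01 (SE 0.089, 2.02-fold, adjusted p = 3.87e-08). Rpph1 read 47065 and 43304 in WT26 against 103191 and 95195 in the Mettl14 KO. The 2 groups were again far apart, by a log2 fold change of 1.13 (SE 0.092, 2.2-fold, adjusted p = 1.23e-08). Terc read 2355 and 3043 in WT26 and 1268 and 1247 in the Mettl14 KO. Both knockout libraries were below the lower WT26 library, with a log2 fold change of -1.10 (SE 0.17, 2.14-fold lower, adjusted p = 2.81e-05). Rmrp did not pass the test: it read 276635 and 238533 in WT26 and 313269 and 294047 in the Mettl14 KO, which did not overlap, and its log2 fold change was 0.24 (95% interval -0.03 to 0.51, adjusted p = 0.129). Within 1 library, the per-length ratio of Rmrp to Rpph1 was 6.92 and 6.48 in WT26 and 3.57 and 3.64 in the Mettl14 KO. Without WT26 replicate 2, Rn7sk (log2 fold change 0.97) and Terc (-0.91) kept their tests but dropped below 2-fold, which left Rpph1 alone (1.07) past both limits.

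Of the long nuclear RNAs, Malat1 read 94689 and 98894 normalized counts in WT26 and 168828 and 170584 in the Mettl14 KO. The knockout libraries were both higher, with a log2 fold change of 0.81 (SE 0.046, 1.75-fold, adjusted p = 1.35e-10). Neat1, transcribed beside it, read 4982 and 4707 against 6215.5 and 6396.5. It rose less, by 0.38 on the log2 scale (SE 0.056, 1.3-fold, adjusted p = 1.71e-05), and the per-length ratio of Malat1 to Neat1 within a library went from 56.5 and 62.5 to 80.8 and 79.3. Pvt1 read 967 and 888 in WT26 and 564 and 621 in the Mettl14 KO. It fell, with a log2 fold change of -0.65 (SE 0.087, 1.57-fold lower, adjusted p = 6.98e-06). Tug1 read 3916 and 3940.2 in WT26 and 3556 and 3550.0 in the Mettl14 KO, a log2 fold change of -0.14 (SE 0.046, adjusted p = 0.0137). This small fall did not pass without WT26 replicate 2 (adjusted p = 0.0594) or without either Mettl14 KO replicate (0.074 and 0.0762).

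Both snoRNA host genes rose in the Mettl14 KO. Gas5 read 4985 and 5151 normalized counts in WT26 and 8209 and 7776 in the Mettl14 KO, and Snhg1 read 2837 and 2689 against 4502 and 4497. The groups were apart in both genes, by a log2 fold change of 0.66 for Gas5 (SE 0.056, 1.58-fold, adjusted p = 2.3e-08) and 0.70 for Snhg1 (SE 0.057, 1.63-fold, adjusted p = 1.18e-08). Of 15 other snoRNA host genes tested, 3 rose and 9 fell in the same libraries, and their median was -0.28 on the log2 scale.

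In the Mettl3 KO, set against RBC, 3 of the 10 RNAs rose and 5 fell, where 25.2% of all genes rose and 28.1% fell, and the median log2 fold change was -0.12. No member passed the adjusted p together with a log2 fold change of 1, against 13.6% of all genes, and at an unadjusted p under 0.05 there were 9 changes of any size, as for 58.4% of all genes. Mitochondrial RNAs moved with this comparison: their sum was 569785 and 368511 normalized counts in RBC and 198566 to 217205 in the Mettl3 KO. Their part in the results, and that of the lower ES cell marker sum, was not tested.

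Rn7sk read 57996 and 71386 normalized counts in RBC and 80019.8 and 100401 in the Mettl3 KO. Both knockout libraries were higher, by a log2 fold change of 0.48 (SE 0.089, 1.39-fold, adjusted p = 0.000185). Terc read 3530.3 and 3886 in RBC and 1758 and 3151 in the Mettl3 KO. Both knockout libraries were lower and they were far apart from each other, and the log2 fold change was -0.60 (SE 0.16, 1.52-fold lower, adjusted p = 0.00437). Without Mettl3 KO replicate 1 it was -0.23 and without replicate 2 it was -1.07, and Terc did not pass with DESeq2 (adjusted p = 0.127). Rpph1 read 50759.8 and 63346.5 in RBC and 44067 and 53678 in the Mettl3 KO. These groups overlapped, although the knockout was lower than RBC within each replicate number. The log2 fold change of Rpph1 was -0.22 (SE 0.09, adjusted p = 0.0459), and it did not pass under 6 of 11 other settings. It was -0.06 without RBC replicate 2 and -0.08 without Mettl3 KO replicate 1. Rmrp read 220825 and 263994.5 in RBC and 209191 and 323210.0 in the Mettl3 KO, with the knockout libraries on both sides of the controls. Its log2 fold change was 0.14 (95% interval -0.13 to 0.40, adjusted p = 0.392), and it was 0.42 without Mettl3 KO replicate 1 (adjusted p = 5.98e-05) and -0.21 without replicate 2 (adjusted p = 0.0242).

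Neat1 was the long RNA that rose most clearly in the Mettl3 KO, from 5647 and 5268 normalized counts in RBC to 7857 and 7309.6. The groups did not overlap, with a log2 fold change of 0.47 (SE 0.056, 1.39-fold, adjusted p = 1.19e-06). Tug1 read 2993 and 3113 in RBC and 2484 and 2579.5 in the Mettl3 KO. It fell by 0.27 on the log2 scale (SE 0.047, 1.21-fold lower, adjusted p = 9.32e-05). Malat1 read 152394 and 151761 in RBC and 137953 and 143393 in the Mettl3 KO, both below the controls. Its log2 fold change of -0.11 (SE 0.046) had an adjusted p of 0.047. The fall of Malat1 did not pass under 6 of 11 other settings, among them leaving out either RBC replicate or Mettl3 KO replicate 1. Pvt1 read 1038 and 1012 in RBC and 1336 and 1075 in the Mettl3 KO. Its rise of 0.24 (SE 0.082, adjusted p = 0.0222) was 0.07 without Mettl3 KO replicate 1 (adjusted p = 0.488), and 0.22 without RBC replicate 2 (adjusted p = 0.0946).

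Gas5 read 10003 and 10578 normalized counts in RBC and 8353 and 8959 in the Mettl3 KO, and fell by 0.25 on the log2 scale (SE 0.055, adjusted p = 0.000959), but did not pass with scaling by library size (-0.10, adjusted p = 0.133). Snhg1 read 4122 and 4538 against 3802 and 4118, which did not overlap by a narrow margin. Its log2 fold change of -0.13 did not pass (SE 0.056, adjusted p = 0.0601), although it did without RBC replicate 1 (-0.20, adjusted p = 0.022) and without Mettl3 KO replicate 2 (-0.18, adjusted p = 0.013). Of the other snoRNA host genes, 1 rose and 9 of 15 fell in the Mettl3 KO, and their median was -0.45. Snhg14 (log2 fold change -1.09, adjusted p = 1.38e-08) and Snhg18 (1.94, adjusted p = 0.0118) were the ones past 2-fold.

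**Figure D2:**
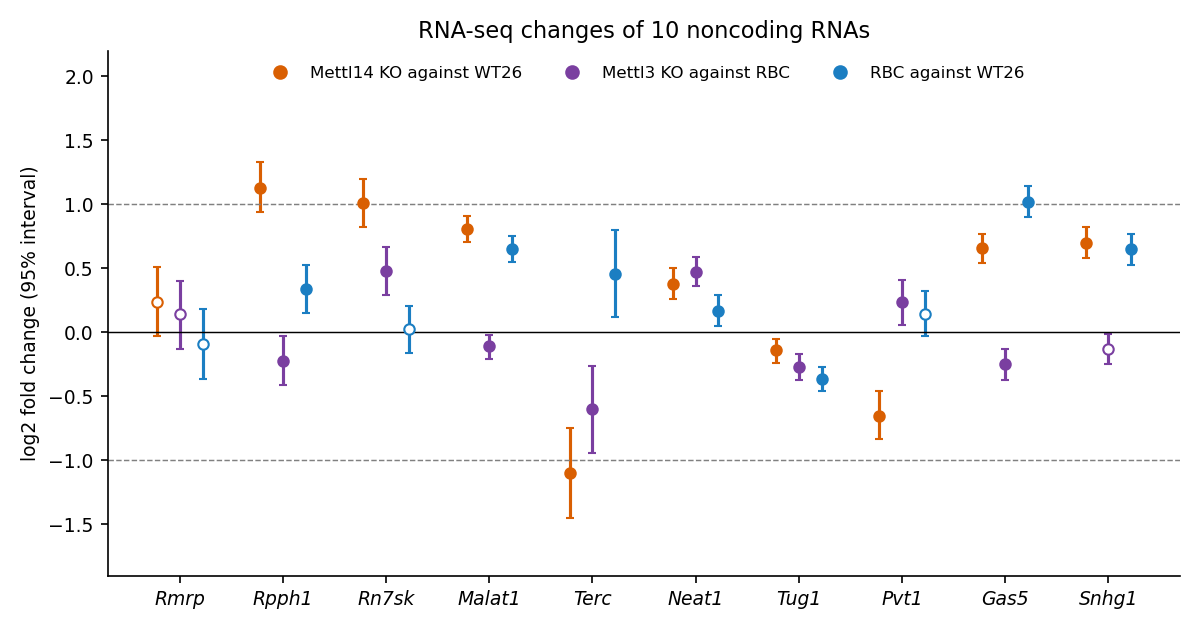
Log2 fold change of each noncoding RNA in RNA-seq with its 95% interval for the Mettl14 KO against WT26, the Mettl3 KO against RBC and RBC against WT26, 2 libraries per line; filled points have an adjusted p no higher than 0.05 and dashed lines mark a log2 fold change of 1 and -1. Rn7sk, Rpph1 and Terc pass these lines in the Mettl14 KO, and Gas5 does between the control lines.

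The control lines themselves differed in several of these RNAs. RBC against WT26 showed 6 higher and 1 lower of 10 at an adjusted p no higher than 0.05, where 19.7% of all genes were higher and 19.2% lower. Gas5 was 2.03-fold higher in RBC (log2 difference 1.02, SE 0.056, adjusted p = 1.73e-10), the 1 member past 2-fold, against 8.98% of all genes. The Gas5 difference was 1.0 without WT26 replicate 1 and 0.98 without RBC replicate 2, just below the limit. Malat1 was 1.57-fold higher (0.65, SE 0.046, adjusted p = 4.65e-09), as was Snhg1 (0.65, SE 0.057, adjusted p = 6.94e-08), and Tug1 was 1.29-fold lower (-0.36, SE 0.046, adjusted p = 6.41e-06). For Rn7sk (0.03, 95% interval -0.16 to 0.21, adjusted p = 0.851) and Rmrp (-0.09, -0.36 to 0.18, adjusted p = 0.618) the control lines overlapped and no difference was detected. Of the 7 that passed, 5 did with DESeq2 and 4 with scaling by library size, which lost Neat1 (0.02), Rpph1 (0.19) and Terc (0.31). All 8 mitochondrial RNAs tested were higher in RBC too (median 1.26, 5 past 2-fold), and their part was not tested.

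Whether an RNA changed unlike in the 2 knockouts was tested directly, as the Mettl3 KO change against RBC minus the Mettl14 KO change against WT26. 6 of 10 RNAs passed (1 higher and 5 lower), where 43.2% of all genes passed, 20.8% higher and 22.4% lower. The difference was -1.36 for Rpph1 (SE 0.13, adjusted p = 1.94e-07), -0.92 for Malat1 (SE 0.065, adjusted p = 5.54e-09), -0.91 for Gas5 (SE 0.078, adjusted p = 6.51e-08) and -0.83 for Snhg1 (SE 0.079, adjusted p = 2.14e-07). These 4 RNAs rose in the Mettl14 KO and had changes below 0 in the Mettl3 KO. For Rn7sk, which rose in both, it was -0.53 (SE 0.12, adjusted p = 0.00221, and 0.0556 with DESeq2). For Pvt1, with opposite signs, it was 0.88 (SE 0.12, adjusted p = 1.26e-05). Mitochondrial RNAs also had lower differences (8 of 8 tested, median -1.55), as did primitive endoderm markers (3 of 4 tested, median -1.97), and their part was not tested.

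For the other 4 RNAs the 2 changes could not be told apart. The difference was 0.09 for Neat1 (95% interval -0.07 to 0.26, adjusted p = 0.353), which rose in both knockouts, and -0.13 for Tug1 (-0.26 to 0.01, adjusted p = 0.131), which fell in both. It was -0.10 for Rmrp (-0.48 to 0.28, adjusted p = 0.682) and 0.50 for Terc (0.01 to 0.99, adjusted p = 0.0918). Without Mettl3 KO replicate 1 (0.86, adjusted p = 3.06e-06) or WT26 replicate 1 (0.68, adjusted p = 0.0358) the Terc difference did pass, and without Mettl3 KO replicate 2 the Rmrp difference did (-0.45, adjusted p = 0.000598). The gene that was knocked out cannot be told apart from the parent line, the clone and the transgenes of RBC in this comparison. With scaling by library size alone, which shifted the median of all genes by 0.18, the count was 8 of 10, and 66.1% of calls over all genes were higher against 48.2% in the analysis above.

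**Figure D3:**
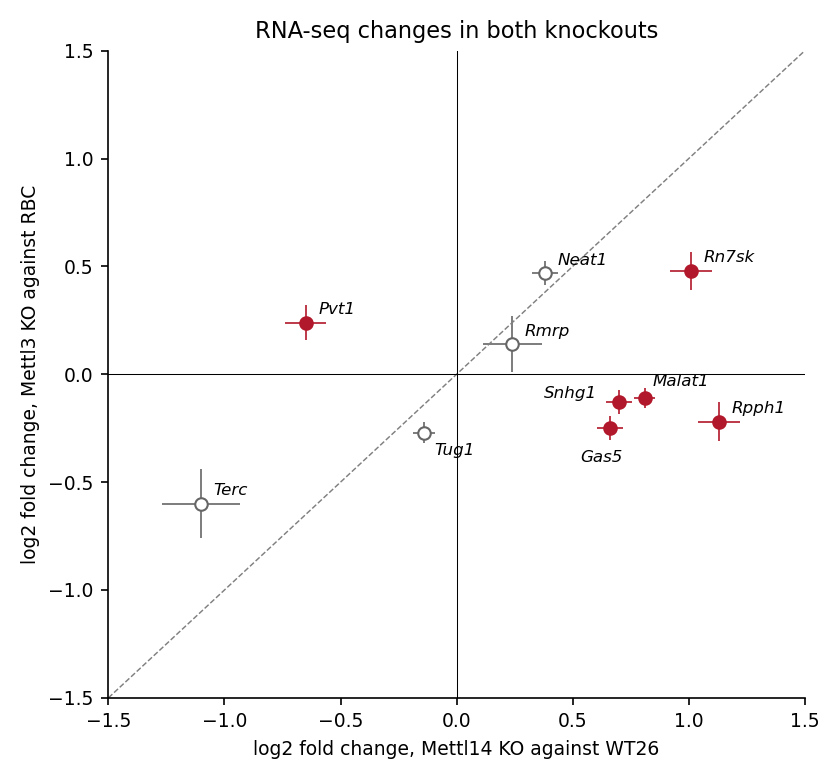
Log2 fold change of each noncoding RNA in the Mettl14 KO (horizontal) and in the Mettl3 KO (vertical), each against its own control line, with SE bars; filled red points differ between the knockouts at an adjusted p no higher than 0.05 and the dashed diagonal marks equal changes. Malat1, Gas5, Snhg1 and Rpph1 lie to the right and just below 0, Pvt1 lies to the left and above it, and Neat1, Rmrp, Tug1 and Terc lie nearer the diagonal.

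The proteins that bind these RNAs were looked at as lists, beside the 25.5% of all genes that rose and 27.0% that fell in the Mettl14 KO, 25.2% and 28.1% in the Mettl3 KO and 19.7% that were higher in RBC than in WT26. Of 7 proteins of the 7SK particle and P-TEFb, 5 fell and none rose in the Mettl14 KO (median -0.30), and 4 fell and 2 rose in the Mettl3 KO (median -0.20). Of 11 proteins of RNase P and RNase MRP, 2 rose and 4 fell in the Mettl14 KO (median -0.17), and 2 rose and 3 fell in the Mettl3 KO (median -0.03). Of 7 telomerase proteins, 4 fell and none rose in either knockout (medians -0.28 and -0.29), and 4 of them were higher in RBC than in WT26. Paraspeckle proteins gave 2 higher and 4 lower of 12 in the Mettl14 KO and 3 higher and 7 lower in the Mettl3 KO, and nuclear speckle proteins 2 higher and 4 lower of 9, and 1 higher and 5 lower. Factors of nonsense-mediated decay, which degrades Gas5 and Snhg1, gave 2 higher and 3 lower of 10 in the Mettl14 KO (median -0.07) and 2 higher and 5 lower in the Mettl3 KO (median -0.17). The medians of all genes were 0.00 in both comparisons, and none of these protein genes passed 2-fold with the test in the Mettl14 KO.

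Of the neighbouring genes described here, Myc and Ccnb1ip1 passed 2-fold with the test in some comparison. Myc, the transcription factor gene that lies 47612 bases from Pvt1, fell in the Mettl14 KO by 1.65 on the log2 scale (SE 0.205, adjusted p = 2.59e-06), and fell by 0.61 in the Mettl3 KO (adjusted p = 0.00347), where Pvt1 had a change above 0. Parp2, which lies 74 bases from Rpph1, changed by 0.29 in the Mettl14 KO (adjusted p = 0.000631) and by -0.42 in the Mettl3 KO (adjusted p = 7.36e-06). Ccnb1ip1, which overlaps Rpph1 on the same strand, was higher in RBC than in WT26 by 1.68 on the log2 scale (SE 0.076, adjusted p = 1.19e-11), and its change was -0.47 in the Mettl14 KO (adjusted p = 0.000209) and -1.0 in the Mettl3 KO (adjusted p = 2.43e-09). Rpph1 differed by 0.34, 1.13 and -0.22 in the same comparisons. Ccdc107, the opposite-strand partner of Rmrp, had 0.09 in the Mettl14 KO (adjusted p = 0.594) and rose by 0.44 in the Mettl3 KO (adjusted p = 0.0168). Morc2a, the opposite-strand partner of Tug1, rose by 0.22 in the Mettl14 KO (adjusted p = 0.000614) and had -0.09 in the Mettl3 KO (adjusted p = 0.12).

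The input libraries of MeRIP-seq were tested for the same changes. None of the 10 RNAs passed in either knockout, where 0.398% of features did in the Mettl14 KO and 0.752% in the Mettl3 KO. At an unadjusted p under 0.05 there was 1 RNA in the Mettl14 KO and 0 in the Mettl3 KO, against 10.6% and 11.7% of features. That RNA was Neat1, with a log2 fold change of 0.57 (95% interval 0.01 to 1.14, adjusted p = 0.461). In the Mettl3 KO, Rn7sk passed the adjusted p in 1 of 13 other settings, the fit on the libraries compared (adjusted p = 0.0292). Terc read 593 and 1301 normalized counts in WT26 input and 411 and 562 in Mettl14 KO input. The knockout was lower in both replicates, by a log2 fold change of -0.96 (95% interval -2.07 to 0.15, adjusted p = 0.572). Rpph1 read 19314 and 50777 against 51815 and 74662 (0.85, adjusted p = 0.608), and Rn7sk 33110.1 and 53015 against 58630.5 and 75967 (0.64, adjusted p = 0.876). Malat1 read 67516 and 71750.2 in WT26 input and 103227 and 77901 in Mettl14 KO input, a log2 fold change of 0.38 (adjusted p = 0.786). The spread between replicates was wider here than in RNA-seq, with a common biological coefficient of variation of 0.273 against 0.0625. Intervals such as that of Terc therefore hold both 0 and the RNA-seq value.

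The m6A IP was compared with input within each line. In WT26, 1 of 10 RNAs was higher in IP and 6 were lower at an adjusted p no higher than 0.05, where 16.9% of the 22621 features tested were higher and 16.1% lower. The Mettl14 KO had 1 higher and 5 lower, RBC 1 higher and 4 lower, and the Mettl3 KO 0 higher and 4 lower, against 13.5% and 12.0%, 15.5% and 13.1%, and 2.78% and 2.22% of features. Past 2-fold with the test, Tug1 was enriched in WT26, the Mettl14 KO and RBC, against 14.5%, 11.9% and 13.4% of features, and no RNA in the Mettl3 KO, against 2.54%. Lower past 2-fold were the same 4 short RNAs, Rmrp, Rpph1, Rn7sk and Terc, in all 4 lines, against 13.5%, 9.91%, 11.1% and 1.86% of features. These values average over the whole RNA, so they cannot show a mark at 1 place in it.

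Rmrp read 71773 and 67446 normalized counts in WT26 input and 494 and 326.5 in IP. Both IP libraries were far below both inputs, with a log2 ratio of -7.40 (SE 0.63, 169-fold lower, adjusted p = 8.68e-05), the 16th lowest of 22621 features. The ratio of Rmrp was -7.01 in the Mettl14 KO (129-fold lower, adjusted p = 0.000104), -6.98 in RBC (126-fold lower, adjusted p = 0.000146) and -5.13 in the Mettl3 KO (35.1-fold lower, adjusted p = 0.0017). Rpph1 read 19314 and 50777 in WT26 input and 814 and 1098 in IP. It was 36.7-fold lower in IP (log2 ratio -5.20, SE 0.57, adjusted p = 0.000476), and 22.6-fold to 54.1-fold lower in the other lines.

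Rn7sk read 33110.1 and 53015 normalized counts in WT26 input and 2792 and 1742 in IP. It was 19.0-fold lower in IP (log2 ratio -4.25, SE 0.74, adjusted p = 0.00514), 17.8-fold lower in the Mettl14 KO, 14.4-fold in RBC and 7.85-fold in the Mettl3 KO (adjusted p = 0.0306). Its test did not pass without IP replicate 2 in WT26 (adjusted p = 0.0657), the Mettl14 KO (0.0604) or RBC (0.0742), without input replicate 2 in RBC (0.0576), nor in the Mettl3 KO without any 1 of its libraries. The repeat subfamily of 7SK, which gathers reads of the many 7SK copies of the genome, gave log2 ratios of -4.04, -3.74, -3.49 and -2.64 in WT26, the Mettl14 KO, RBC and the Mettl3 KO (adjusted p = 0.00701, 0.0104, 0.011 and 0.0597). Terc read 593 and 1301 in WT26 input and 72.9 and 23.4 in IP, on 125 and 26 raw reads. It was 19.1-fold lower in IP (log2 ratio -4.26, SE 0.59, adjusted p = 0.00218), and 12.5-fold to 28.3-fold lower in the other lines, where the test failed in 2 lines when 1 library was left out (RBC without IP replicate 2, adjusted p = 0.0573, and the Mettl3 KO without input replicate 1, 0.0502, or IP replicate 2, 0.121).

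The 4 RNAs lower past 2-fold in IP were the 4 shortest of the 10, while the longer Pvt1 and Snhg1 were lower in WT26 by less. Of 2367 tested genes under 500 exon bases, 31.4% were lower in WT26 IP and 6.0% higher, with a median log2 ratio of -1.14, whereas of 19035 longer genes 11.5% were lower and 19.2% higher, with a median of 0.17. All 4 other short RNA polymerase III products tested were lower in WT26, the Mettl14 KO and RBC, with medians of -5.22, -5.86 and -5.22, and 1 was in the Mettl3 KO (median -4.51). The part of RNA length, of sonication and of the mark in these ratios was not tested.

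Among the long RNAs Tug1 stood alone. It read 2220.5 and 2415 normalized counts in WT26 input and 4452 and 10379 in IP, so both IP libraries lay above both inputs and replicate 2 was higher than replicate 1. The log2 ratio was 1.68 (SE 0.43, 3.2-fold, adjusted p = 0.0132). The ratio stood at 1.52 for the Mettl14 KO (2.86-fold, adjusted p = 0.0235), 1.79 for RBC (3.45-fold, adjusted p = 0.0132) and 0.86 for the Mettl3 KO (1.82-fold, adjusted p = 0.219). The Tug1 enrichment did not pass without either input or without IP replicate 2 in these 3 lines, where the ratio was lowest without IP replicate 2 (0.95 in WT26, 0.97 in the Mettl14 KO and 1.23 in RBC). Same-numbered libraries deviated together within input and within IP, and with that block Tug1 passed the adjusted p in the Mettl3 KO as well (0.81, adjusted p = 0.000265). That block was not among the planned settings, and it was the only 1 of 14 other settings in which Tug1 passed there. For scale, the ES cell mRNA Klf4 had log2 ratios of 2.08, 2.04, 2.15 and 1.12 in the same 4 lines, Sox2 1.97, 2.33, 2.1 and 1.89, and Nanog 1.10, 0.97, 1.07 and 0.40.

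Malat1 was not enriched when averaged over its length. It read 67516 and 71750.2 normalized counts in WT26 input and 69532 and 92878 in IP, with overlapping ranges. IP and input also overlapped in the Mettl14 KO, while in RBC and the Mettl3 KO both IP libraries lay above both inputs. By share of library reads they did not overlap. Malat1 took 0.384% and 0.36% of input and 0.519% and 0.636% of IP in WT26, and 0.564% and 0.394% against 0.899% and 0.692% in the Mettl14 KO. Scaling by library size raised the median of all features as well, and Malat1 passed in 0 of 14 other settings in each line. All 8 replicate pairs were above 0, and the fitted log2 ratio ran from 0.22 in WT26 (SE 0.29, adjusted p = 0.574) to 0.32 in RBC (adjusted p = 0.411). Neat1 read 3673 and 3442 in WT26 input and 5451 and 3448 in IP. Its log2 ratio was 0.32 in WT26 (adjusted p = 0.349), -0.04 in the Mettl14 KO (adjusted p = 0.92), -0.13 in RBC (adjusted p = 0.723) and -0.76 in the Mettl3 KO (adjusted p = 0.1, and 0.00409 with the block). Pvt1 was lower in WT26 IP, from 746 and 905 to 498 and 508 (log2 ratio -0.71, adjusted p = 0.0318), and in the Mettl14 KO (-0.89, adjusted p = 0.0183). It missed the limit in RBC (-0.64, adjusted p = 0.0531, or 0.00537 with the block) and also in the Mettl3 KO (-0.50, adjusted p = 0.192, and 0.0327 with the block). In the Mettl3 KO this unplanned block was the only 1 of 14 other settings in which Pvt1 passed. Of 14 other settings the Pvt1 call was lost in 7 for WT26, where the ratio ran from -0.85 to -0.29, and in 4 for the Mettl14 KO. These included leaving out any 1 of the 4 libraries in WT26, and input replicate 2 or IP replicate 2 in the Mettl14 KO. By share of library reads Pvt1 took 0.00424% and 0.00454% of WT26 input and 0.00372% and 0.00348% of IP. In RBC replicate 1 it took 0.00435% of input and 0.00434% of IP.

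In normalized counts Gas5 and Snhg1 lay below input in every replicate of every line, Gas5 most in replicate 2 of WT26 and RBC (log2 ratio -1.39 in both) and of the Mettl14 KO (-1.33). By share of library reads some pairs turned. Gas5 took 0.016% of input and 0.0166% of IP in RBC replicate 1, and 0.016% and 0.0148% of input and 0.0186% and 0.0156% of IP in the Mettl3 KO. Snhg1 took 0.00864% of input and 0.011% of IP in Mettl3 KO replicate 2. Scaling by library size put the median of all features at 0.37 to 0.49. Gas5 read 1787.5 and 2095.5 normalized counts in WT26 input and 1238 and 799 in IP. The log2 ratio was -0.93 in WT26 (adjusted p = 0.109), -0.75 in the Mettl14 KO (0.2), -0.80 in RBC (0.169) and -0.23 in the Mettl3 KO (0.773), and with the block it passed in WT26 (-0.97, adjusted p = 0.00111), the Mettl14 KO (-0.87, 0.00284) and RBC (-0.91, 0.00181). Snhg1 read 1231 and 1652 in WT26 input and 701 and 948 in IP (log2 ratio -0.81, adjusted p = 0.0416), and this call was lost when any 1 of those libraries was left out. With the block Snhg1 passed also in the Mettl14 KO (-0.70, adjusted p = 0.0155) and RBC (-0.69, adjusted p = 0.0155). Of 14 other snoRNA host genes tested, 8 were lower and none higher in WT26 IP, with a median log2 ratio of -0.92.

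**Figure D4:**
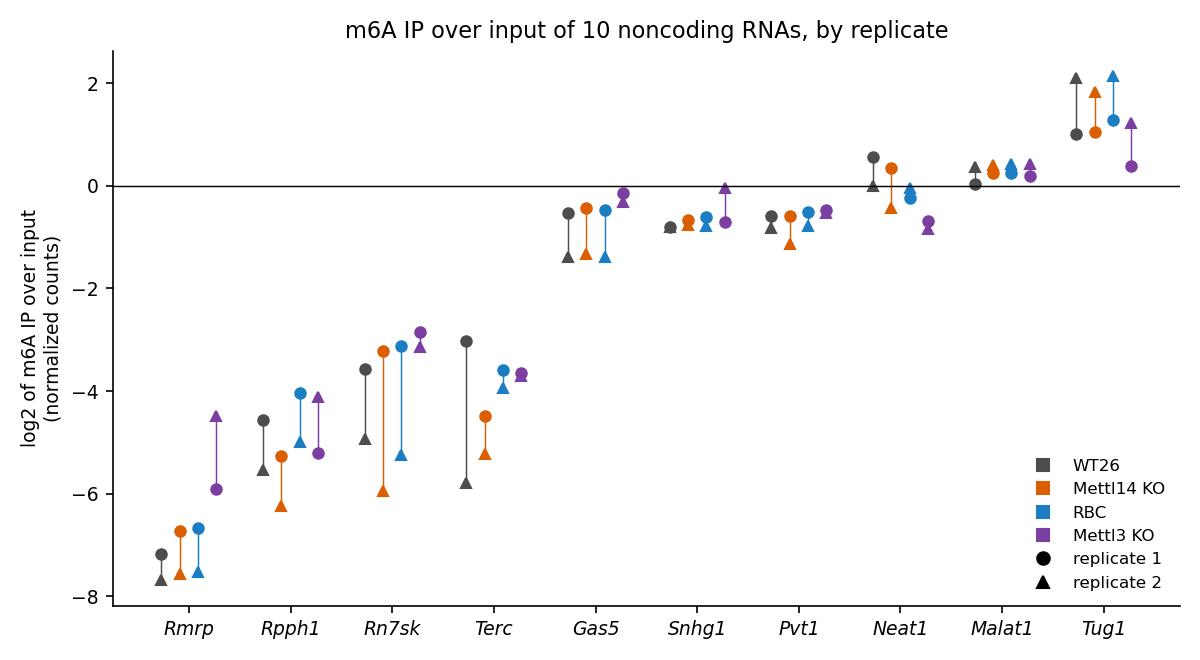
Log2 ratio of normalized IP over input counts for each noncoding RNA in each replicate (circle, replicate 1; triangle, replicate 2) of the 4 lines. Rmrp, Rpph1, Rn7sk and Terc lie between -7.69 and -2.84, Tug1 is above 0 in all 8 pairs, and Malat1 lies between 0.04 and 0.42.

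Neither knockout changed the IP over input ratio of any of the 10 RNAs at an adjusted p no higher than 0.05, and 0.0% of all features passed in either comparison. At an unadjusted p under 0.05 there were 0 RNAs and 126 features for the Mettl14 KO, and 1 RNA and 787 features for the Mettl3 KO. That RNA was Rmrp. Its log2 ratios by replicate were -6.67 and -7.53 in RBC and -5.90 and -4.48 in the Mettl3 KO. Both knockout replicates were less depleted than both controls, by 1.84 on the log2 scale (SE 0.68, 95% interval 0.39 to 3.30, adjusted p = 0.854), or 2.02 with the block (SE 0.48, adjusted p = 0.1). In the Mettl14 KO the ratio of Rmrp differed by 0.39 (95% interval -1.06 to 1.84). Weaker depletion in the Mettl3 KO was not particular to Rmrp. Genes under 500 exon bases had a median log2 ratio of -1.07 in RBC and -0.59 in the Mettl3 KO. The medians of the other short RNA polymerase III products were -5.22 and -4.51. Of the other short members, Rn7sk changed by 0.88, Rpph1 by 0.03 and Terc by -0.02.

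The enriched RNA, Tug1, had log2 ratios by replicate of 1.28 and 2.14 in RBC and 0.39 and 1.23 in the Mettl3 KO. Both knockout values lay below both control values, the nearest by a narrow margin, and the change was -0.92 (SE 0.6, 95% interval -2.21 to 0.36, adjusted p = 0.854). With the block within input and within IP it was -0.90 (SE 0.19, unadjusted p = 0.000203, adjusted p = 0.0869). In the Mettl14 KO the ratio of Tug1 was 1.05 and 1.83 by replicate against 1.0 and 2.1 in WT26, a change of -0.16 (95% interval -1.44 to 1.12). Malat1 changed by 0.09 in the Mettl14 KO and by -0.01 in the Mettl3 KO (95% interval -0.90 to 0.88), and Neat1 by -0.36 and -0.63 (-1.42 to 0.17 in the Mettl3 KO).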

How the data were processed

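RNA-seq libraries of the 4 lines and MeRIP-seq input and IP libraries were used as the read counts per gene that the authors deposited. Per the labels, RNA-seq reads were trimmed with cutadapt and aligned with STAR to GRCm38 (the submitters' notes name cutadapt 1.8.1, STAR 2.6.0c, FastQC and DESeq2 1.26.0), and MeRIP-seq counts come from TEtranscripts in its multi mode, which shares reads with several hits and adds 1153 repeat subfamilies. The counting tool of the RNA-seq table and the strand setting were not given in the sources used here. A read that fits several copies can therefore be split, which touches Rn7sk, and overlapping genes were not separable.

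Counts were tested with the quasi-likelihood test of edgeR 4.0.16 in R 4.3.3, with size factors of DESeq2 1.42.0, filterByExpr as the filter on low counts and Benjamini-Hochberg adjustment over all features tested (17021 RNA-seq genes and 22621 MeRIP-seq genes or repeat subfamilies). All libraries of a table entered 1 fit. Every adjusted p and SE comes from this fit unless another is named. The sources do not say that RNA-seq replicates came from separate cultures, so p-values measure the spread between libraries of a line. That spread was estimated over all lines together and not for each line. RBC, whose RNA-seq replicates stood further apart, was tested with the shared spread. A call for RNA-seq and input needed 2 things, an adjusted p no higher than 0.05 and a difference above 1 in size on the log2 scale, and a call of enrichment the same with a higher IP. Changes in IP over input and differences between the knockouts needed the adjusted p alone. The genes named in the text are the 10 members, the genes of the lists past both limits and annotated neighbours, of which some are not reported here. Members and lists were chosen with earlier results of these data known. Lists are described by counts and medians.

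The pairing of same-numbered libraries was checked by the correlation of their deviations from group means over 13662 features of MeRIP-seq. It was 0.248 to 0.451 between inputs and 0.59 to 0.802 between IPs of different lines, so the replicate number was used as a block within input and within IP as a second fit. This block was not among the planned settings. The planned blocks were the replicate number alone and the pair of input and IP. Over 11879 genes of RNA-seq the correlation was 0.463 between RBC and the Mettl3 KO and -0.173 to 0.226 between the other pairs of lines. Same-numbered libraries of RBC and the Mettl3 KO thus deviated together, but those of all 4 lines did not, and the RNA-seq fit used no block. On simulated counts with 200 genes changed 4-fold, 93.5% were recovered in the Mettl14 KO RNA-seq comparison (16508 genes). Recovery was 51.0% for IP over input in WT26 (21599 features). It was 14.5% for the change of that ratio in the Mettl14 KO (21660 features). Of the calls made in these simulations, 9.22%, 2.86% and 6.45%, in the same order, were false. The shares for RNA-seq and for the change of the ratio were above the adjusted p limit. Alternatives were the DESeq2 test, scaling by library size, other filters, blocks, fits on the libraries compared and leaving out each library. Gene positions and sequences come from the GRCm38 annotation and genome, where Malat1, Neat1 and Tug1 have another version of their ID than in the tables. Figures were drawn with matplotlib 3.10.9.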

Additional observations from a re-analysis of the deposited data

Results flagged for a closer look

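The change in RNA-seq differed between the knockouts, by the test of the difference itself, for 6 of the 10 RNAs. The Mettl3 KO change against RBC minus the Mettl14 KO change against WT26 was -1.36 for Rpph1, -0.92 for Malat1, -0.91 for Gas5, -0.83 for Snhg1, -0.53 for Rn7sk and 0.88 for Pvt1 on the log2 scale, beside 43.2% of all genes that passed. For Malat1, Gas5 and Snhg1 the control lines differed by 0.65, 1.02 and 0.65, with RBC higher.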

How the results depend on the processing

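For the 52 differences of single RNAs that passed, together with Rmrp in the Mettl3 KO, 595 of 667 values under other settings kept direction and call, 68 lost the call, 2 turned and 2, both of Rmrp, passed newly. Those that turned were Malat1 in the Mettl3 KO with scaling by library size (0.04, adjusted p = 0.489) and Rmrp there without Mettl3 KO replicate 2 (-0.21, against 0.42 without replicate 1). Of 68 that did not pass, with Rmrp in the Mettl3 KO counted again among them, 86 of 994 values had another sign and 47 passed. Leaving out each library gave 1 to 3 called RNAs for the Mettl14 KO, 0 to 1 for the Mettl3 KO, 0 to 1 for RBC against WT26, and 0 to 1 enriched in WT26, the Mettl14 KO and RBC, with 1 sample then assumed to vary like the other groups. Scaling by library size left 0 called for RBC against WT26, since the median of all genes moved by -0.16. It also moved the share of higher calls from 54.1% to 40.9% there and from 45.3% to 60.5% for the Mettl3 KO against RBC (median shift 0.15). The difference between knockouts held 6 RNAs, 5 with DESeq2, 8 with library size, 8 without a filter and 6 to 7 without a library.

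With the replicate number as a block in RNA-seq, 3, 0 and 1 RNAs were called and 7 differed between the knockouts. There the correlation of same-numbered libraries was highest between RBC and the Mettl3 KO (0.463). With the block within input and within IP, 8, 8, 8 and 7 RNAs passed in WT26, the Mettl14 KO, RBC and the Mettl3 KO against 7, 6, 5 and 4, the count of enriched RNAs stayed at 1, 1, 1 and 0, and no change of IP over input or of input was called for any of the 10. With the planned block of the replicate number alone 8, 7, 8 and 4 RNAs passed, and with that of each input and IP pair 8, 7, 6 and 4.

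Counts over all features moved more. At least 10 counts in every library gave 1321, 1243 and 720 RNA-seq calls against 2471, 2312 and 1528. Enriched features were 3272, 2692, 3030 and 575 in the 4 lines, and 5714, 5127, 5840 and 2525 with library size. In the Mettl3 KO they were 1123 with DESeq2, 1565 without a filter, 1363 with 1 block, 1922 with the block within fractions and 1446 on its own libraries. Leaving out a library gave 22 to 4320 in WT26, 8 to 3797 in the Mettl14 KO, 1 to 4186 in RBC and 11 to 709 in the Mettl3 KO. Changes of IP over input numbered 0 and 0, 24 and 25 without a filter, and 1 and 0 with DESeq2 and with each block. Input changes numbered 90 and 170, and 854 and 975 with the block within fractions, 386 and 429 with DESeq2, 549 and 612 without a filter, 359 and 422 with 1 block, 632 and 940 on the libraries compared, 48 and 86 with the 10-count filter, and 1 to 13 and 13 to 60 without a library. The causes were not tested. Groups held 2 libraries each, and Terc had 11 to 154 raw IP reads. Of simulated 4-fold changes of IP over input in the Mettl14 KO, 14.5% were recovered, and 6.45% of the calls were false.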
